A study of Homo sapiens with 18 samples.

Results

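Metallothioneins, the factor that induces them and the exporter that works beside them were followed across 6 groups of OVCAR3-KRAB ovarian cancer cells. The 8 genes were taken by symbol from the count table: the metallothioneins MT1E, MT1F, MT1G, MT1M, MT1X and MT2A, the metal-responsive transcription factor MTF1 and the zinc exporter SLC30A1. They are 8 of the 28277 genes in the table. The line OVCAR3 derives from an ovarian carcinoma, and in OVCAR3-KRAB a nuclease-dead Cas9 joined to the KRAB repressor (dCas9-KRAB) is stably expressed. RNA-seq covered lines carrying the guide sgCtl, sgXIST7 or sgXIST9, each in normoxia without treatment and after 24 h in 1% oxygen (hypoxia), with 3 replicates in each of the 6 groups and 18 libraries in all. The control guide sgCtl is directed at the Gal4 promoter, and sgXIST7 and sgXIST9 are directed at different sites of the promoter of XIST, the noncoding RNA that silences an X chromosome. The dCas9-KRAB transgene is shared by all 6 groups, control cells included. The sequenced cells are described as clonal, and how many clones stand behind the libraries of a guide is not given in the sources used here, so that the knockdown (KD) of XIST and the clones that carry it cannot be told apart. The cells with 1 guide are called a line below. The study calls its RNA-seq replicates biological, without saying whether they were separate cultures or clones, and p-values measure only the spread between these libraries.

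Metallothioneins are small, cysteine-rich proteins that bind zinc, copper and cadmium, and their genes lie side by side in a cluster. When free zinc rises, it binds the zinc fingers of MTF1, which then occupies metal response elements in the promoters of the metallothionein genes and of SLC30A1. SLC30A1, also known as ZnT1, moves zinc out of the cell through the plasma membrane, and metallothionein genes are also known to respond to low oxygen, glucocorticoids and oxidative stress.

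MT2A and MT1X were the metallothioneins with more than stray counts, and the promoters of these genes and of SLC30A1 are shown because the metal response element sits there. Each sequence is the 250 bases before the transcription start in RefSeq (GRCh38.p14), 5′ to 3′ on the strand of the gene, with matches to the metal response element core in capitals. The core was searched as TGCACNC or TGCGCNC on both strands. The windows are chr16:56608334-56608583 on the plus strand for MT2A, chr16:56682220-56682469 on the plus strand for MT1X and chr1:211579162-211579411 on the minus strand for SLC30A1.
MT2A: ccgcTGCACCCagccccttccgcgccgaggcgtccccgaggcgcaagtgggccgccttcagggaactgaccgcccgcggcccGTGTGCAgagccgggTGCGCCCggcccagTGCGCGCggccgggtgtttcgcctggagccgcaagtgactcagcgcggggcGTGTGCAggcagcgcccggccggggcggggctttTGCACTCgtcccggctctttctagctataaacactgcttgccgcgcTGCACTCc
MT1X: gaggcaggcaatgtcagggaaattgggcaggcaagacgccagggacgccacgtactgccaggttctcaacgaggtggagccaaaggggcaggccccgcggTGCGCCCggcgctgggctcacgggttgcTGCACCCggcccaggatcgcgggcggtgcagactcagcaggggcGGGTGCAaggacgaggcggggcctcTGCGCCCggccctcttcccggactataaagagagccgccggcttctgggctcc
SLC30A1: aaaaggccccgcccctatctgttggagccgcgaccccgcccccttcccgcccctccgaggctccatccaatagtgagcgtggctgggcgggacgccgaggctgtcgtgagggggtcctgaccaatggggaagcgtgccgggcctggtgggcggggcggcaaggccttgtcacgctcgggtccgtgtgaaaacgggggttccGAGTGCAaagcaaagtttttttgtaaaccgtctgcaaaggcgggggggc

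The MT2A window held 7 metal response element cores, that of MT1X held 4 and that of SLC30A1 held 1, while that of MTF1 (chr1:37859593-37859842, minus strand) held 0. Of the 35116 promoters of the same length, 24.8% held at least 1 core, 0.37% at least 4 and 0.0313% at least 7. The core of the hypoxia response element (ACGTG or GCGTG, both strands) was found once each in MT2A and MT1X, at 2 positions in MTF1 and at 3 in SLC30A1. It was present in 43.2% of all promoters, with at least 3 matches in 7.76%. The match in MT2A, at bases −90 to −86 before the start, overlapped a metal response element core at −88 to −82. A match is a description of letters and no measure of binding, and the shares over all promoters were not matched for CG content. CG dinucleotides numbered 32 in MT2A, 22 in MT1X and in SLC30A1 and 20 in MTF1, against a median of 11 over all promoters. Of the 8 genes, 4 were in the RefSeq promoter table (MT2A, MT1X, MTF1 and SLC30A1), and MT1E, MT1F, MT1G and MT1M were not.

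**Figure D1:**
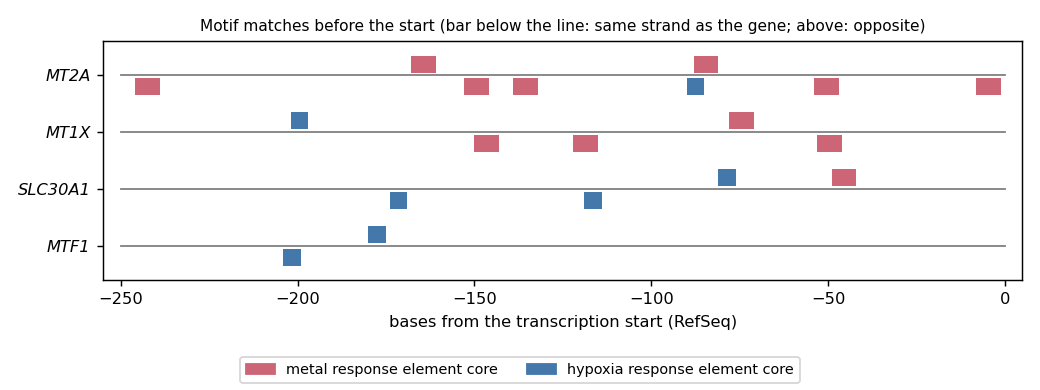
Matches to the metal response element core and to the hypoxia response element core in the 250 bases before the RefSeq transcription start of 4 genes; the x axis is the distance in bases from the start, and the bars lie below the line for the strand of the gene and above it for the opposite strand. The metal cores number 7 in MT2A, 4 in MT1X, 1 in SLC30A1 and 0 in MTF1.

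Total counts per library ranged from 11794375 to 24906936, with a median of 17629433.5, and 14938 genes had enough counts to be tested. XIST, the targeted gene, was at 242 to 867 CPM (counts relative to the library size after TMM scaling) in the normoxia libraries of sgCtl. The normoxia libraries of sgXIST7 had 0.0436 to 0.222 CPM, and those of sgXIST9 had 29.0 to 53.6 CPM. In hypoxia XIST was at 123 to 249 CPM in sgCtl, 0 to 0.259 in sgXIST7 and 16.3 to 32.2 in sgXIST9. It was called lower with hypoxia in sgCtl (log2 −1.485, edgeR, adjusted p = 0.00594), with overlapping groups. Of 5 genes known to be induced by hypoxia, CA9, VEGFA, NDRG1 and ANKRD37 were called higher in hypoxia in each of the 3 lines, and EGLN3 was called in none. Of 8 markers of ovarian carcinoma, EPCAM and KRT18 were at 129 CPM or more in each library and KRT8 at 4.07 or more. PAX8 had at most 5.94 CPM, and WT1, MSLN, MUC16 and KRT7 were at or near 0 with at most 0.695 CPM. The 6 markers of leukocytes and endothelium had at most 0.593 CPM. Of 3 fibroblast markers COL3A1 ranged from 356 to 1060 CPM and the others reached at most 7.08. With several defining markers of the tumour type near 0 and COL3A1 abundant, the name of the cell line is used as labelled, and its identity was not tested. The third hypoxia library of each line had the lowest total count of its group and the largest deviation from its group over all genes (0.502, 0.350 and 0.392 in log2 units for sgCtl, sgXIST7 and sgXIST9). These deviations correlated between lines with r from 0.383 to 0.569. Where leaving out the third hypoxia libraries of all lines changed a call or a sign for any of the 8 genes, this is given. Not every other hypoxia result is given without them.

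Most of the metallothionein genes on the list had almost no counts in these cells. MT1F and MT1M had 0 counts in all 18 libraries, MT1G had 1 count in 1 library and MT1E had 6 counts spread over 5 libraries, all in normoxia of the KD lines and never above 2. The limit that a count of 0 allows (3 counts) corresponds to 0.13 to 0.266 CPM, depending on the library, and covers counting error only, since the reads carry no molecular identifiers. These 4 genes did not pass the filter on low counts and were not tested. Of the other metallothionein genes and pseudogenes in the table, MT1A, MT1B and MT1L had 3, 5 and 6 counts in all, and MT1H, MT1HL1, MT1DP, MT1JP, MT3 and MT4 had 0. Near-identical copies could take or lose reads here. Of the 50-base windows of the exons, 85.4% occurred once in hg38 for MT2A, 89.9% for MT1X, 79.3% for MT1E, 99.7% for MT1F, 87.8% for MT1G and 85.7% for MT1M, against 98.5% for MTF1 and 100% for SLC30A1.

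MT2A (chromosome 16, 56608584 to 56609497, plus strand, hg38), the main metallothionein of most human tissues, had the most counts of the 8 genes. In sgCtl normoxia its level was 80.4, 65.7 and 74.6 CPM in replicates 1 to 3. In sgCtl hypoxia it was 73.5, 83.8 and 79.2 CPM. The sgCtl groups overlapped, and both were below each library of the KD lines. In sgXIST7 the levels were 149, 88.9 and 158 CPM in normoxia. They were 267, 336 and 340.1 CPM in hypoxia. In this line each hypoxia library was above each normoxia library, and above each library of the other groups. In sgXIST9 the levels were 156, 156 and 176 CPM in normoxia. They were 162, 162 and 218 CPM in hypoxia. The sgXIST9 groups overlapped with each other, and sgXIST9 in normoxia overlapped with sgXIST7 in normoxia. From low to high, the group means were 73.6 ± 7.37 (SD, n = 3) in sgCtl normoxia, 78.9 ± 5.16 in sgCtl hypoxia, 132 ± 37.7 in sgXIST7 normoxia, 162.5 ± 11.7 in sgXIST9 normoxia, 181 ± 32.1 in sgXIST9 hypoxia and 314 ± 41.1 CPM in sgXIST7 hypoxia. Neighbours in this order overlapped, except between sgCtl hypoxia and sgXIST7 normoxia and between sgXIST9 hypoxia and sgXIST7 hypoxia.

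MT1X (chromosome 16, 56682470 to 56684196, plus strand, hg38), an MT1 isoform of the same cluster, was at 36.6, 26.8 and 36.1 CPM in sgCtl normoxia. It was at 62.4, 67.4 and 38.2 CPM in sgCtl hypoxia. In sgCtl the third hypoxia library lay close to the normoxia libraries, but the groups did not overlap. In sgXIST7 it was at 54.6, 26.8 and 52.5 CPM in normoxia. It was at 99.0, 219 and 221 CPM in hypoxia. The first sgXIST7 hypoxia library was below the others of its group, and all 3 were above each normoxia library of the line. In sgXIST9 it was at 51.4, 39.8 and 44.4 CPM in normoxia. It was at 65.6, 58.5 and 89.9 CPM in hypoxia. The group means rose from 33.2 ± 5.47 in sgCtl normoxia over 44.7 ± 15.5 in sgXIST7 normoxia, 45.2 ± 5.83 in sgXIST9 normoxia, 56 ± 15.6 in sgCtl hypoxia and 71.3 ± 16.5 in sgXIST9 hypoxia to 179.6 ± 69.7 CPM in sgXIST7 hypoxia (SD, n = 3). Of the neighbours in this order, only sgXIST9 hypoxia and sgXIST7 hypoxia did not overlap. The MT1X locus overlaps an unnamed noncoding gene on the same strand that is not used here, and counts of the 2 cannot be told apart where their exons overlap.

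MTF1 (chromosome 1, 37809575 to 37859592, minus strand, hg38), the zinc-sensing activator of these genes, ranged from 25.6 to 57.3 CPM over the 18 libraries. The highest value and the lowest in sgCtl were both in hypoxia, at 40.6, 57.3 and 27.3 CPM in replicates 1 to 3, against 30.2, 37.2 and 28.2 CPM in normoxia. The levels were 30.3, 39.3 and 34.2 CPM in sgXIST7 normoxia and 30.3, 31.5 and 25.6 CPM in sgXIST7 hypoxia. In sgXIST9 they were 29.9, 30.8 and 30.8 CPM in normoxia and 33.0, 38.9 and 25.9 CPM in hypoxia. In each line the third hypoxia library had the lowest MTF1 level of its group, and all neighbouring groups overlapped when ordered by their means of 29.1 to 41.7 CPM.

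SLC30A1 (chromosome 1, 211571568 to 211579161, minus strand, hg38), the plasma membrane zinc exporter, was lowest in sgXIST7 hypoxia. Its levels were 28.1, 18.3 and 19.4 CPM there, against 47.4, 24.3 and 34.9 CPM in sgXIST7 normoxia. In sgCtl they were 55.4, 42.2 and 39.8 CPM in normoxia and 43.3, 71.7 and 25.6 CPM in hypoxia, the widest spread of the 6 groups. In sgXIST9 they were 47.9, 36.5 and 37.3 CPM in normoxia and 29.0, 43.0 and 20.6 CPM in hypoxia. The order of the means was 21.9 ± 5.37 in sgXIST7 hypoxia, 30.9 ± 11.3 in sgXIST9 hypoxia, 35.5 ± 11.6 in sgXIST7 normoxia, 40.6 ± 6.36 in sgXIST9 normoxia, 45.8 ± 8.39 in sgCtl normoxia and 46.8 ± 23.2 CPM in sgCtl hypoxia (SD, n = 3), and all neighbours overlapped.

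Levels of different genes were compared per length of their exons (401 bases for MT2A, 404 for MT1X, 7936 for MTF1 and 5893 for SLC30A1). In CPM per kb, sgCtl normoxia had 183 for MT2A, 82.1 for MT1X, 7.77 for SLC30A1 and 4.02 for MTF1. In sgXIST7 hypoxia the levels were 784 for MT2A, 444.5 for MT1X, 3.72 for SLC30A1 and 3.67 for MTF1. In sgXIST9 hypoxia they were 450.5, 176.5, 5.24 and 4.11 CPM per kb in the same order. In these groups the level of MT2A was the highest of the 4 and that of MTF1 the lowest, and in sgXIST7 hypoxia the levels of SLC30A1 and MTF1 were close.

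**Figure D2:**
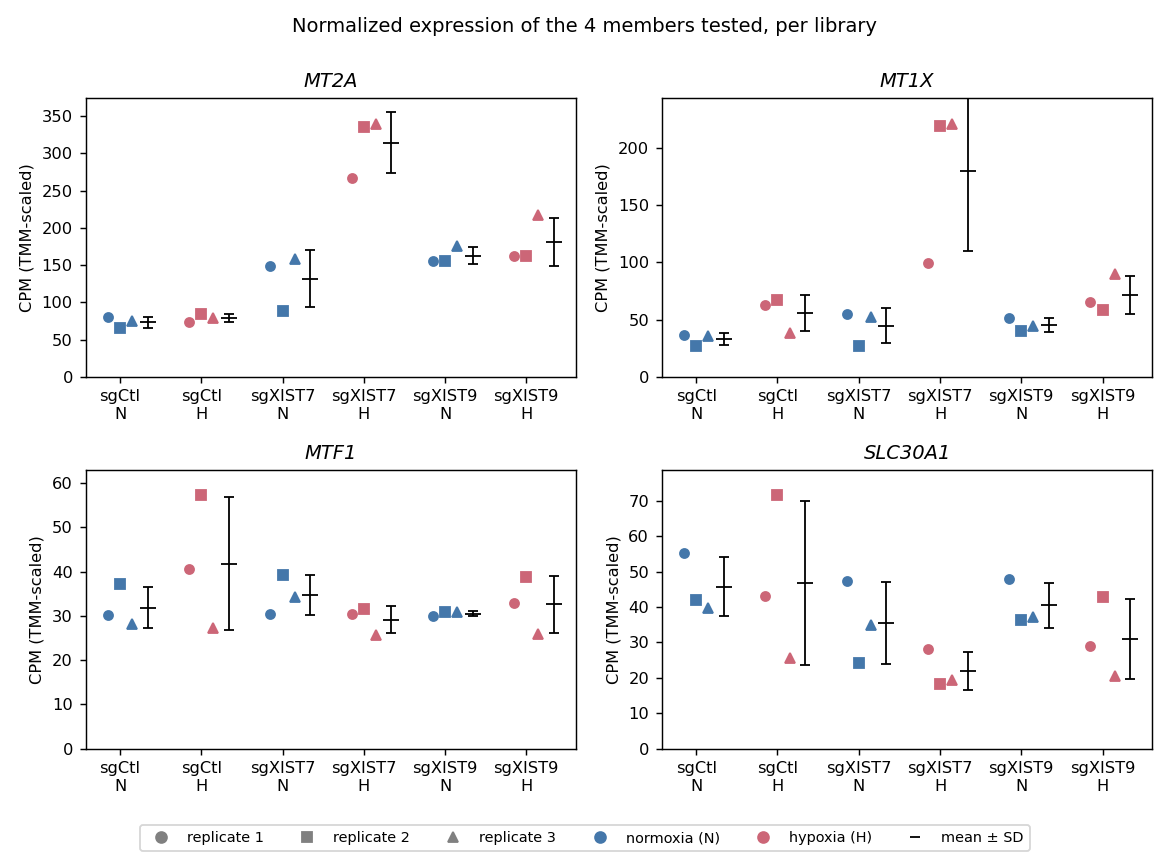
Expression in CPM of the TMM-scaled library size (y axis) of MT2A, MT1X, MTF1 and SLC30A1 in the 6 groups (x axis, N for normoxia and H for hypoxia); each point is 1 library, its shape the replicate number, and the black bar the mean ± SD of 3 libraries. MT2A and MT1X are highest in sgXIST7 hypoxia (means of 314 and 179.6 CPM), where SLC30A1 is lowest (21.9 CPM).

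The first question was whether 24 h of hypoxia changed these genes within a line. Calls required both an adjusted p below 0.01 and a log2 fold change beyond 1 in size in edgeR's quasi-likelihood test over all 14938 genes. In sgXIST7, MT1X rose 4.01-fold (log2 2.004 ± 0.309 SE, adjusted p = 3.13e-05) and MT2A rose 2.38-fold (log2 1.25 ± 0.179, adjusted p = 1.41e-05, edgeR, n = 3 libraries a group), and 2 of the 4 genes tested were called where 27.3% of all genes were. In sgCtl, 0 of 4 were called (1 at an unadjusted p under 0.05) against 19.7% of all genes, and in sgXIST9, 0 of 4 (again 1) against 23.3%. DESeq2 also called 0 in these lines and 2 in sgXIST7. MT1X was higher in each hypoxia library than in each normoxia library in these lines too, with log2 changes of 0.76 ± 0.306 in sgCtl (edgeR, adjusted p = 0.0471) and 0.66 ± 0.301 in sgXIST9 (edgeR, adjusted p = 0.0748). The log2 changes of MT2A were 0.10 ± 0.179 in sgCtl and 0.15 in sgXIST9 (edgeR, adjusted p = 0.668 and 0.486). SLC30A1 had log2 changes of 0.04 in sgCtl, −0.70 in sgXIST7 and −0.39 in sgXIST9 (edgeR, adjusted p = 0.926, 0.0785 and 0.321), and MTF1 of 0.40, −0.24 and 0.10 (adjusted p = 0.12, 0.324 and 0.713). Without the third hypoxia libraries of all lines, the changes in sgXIST7 were 1.84 for MT1X (adjusted p = 0.000656) and 1.20 for MT2A (adjusted p = 4.21e-05), and both were still called by edgeR. In bulk libraries, a change in the share of cells that express a gene and a change in its RNA per cell cannot be told apart.

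The next question was how the KD lines differed from sgCtl in the same oxygen. In normoxia MT2A was 2.21-fold higher in sgXIST9 (log2 1.14 ± 0.180, adjusted p = 0.000147, edgeR), the 1 gene called of 4 tested against 7.70% of all genes. Beside this, the 3 fibroblast markers summed to 582 to 631 CPM in sgXIST9 normoxia and 920 to 969 CPM in sgCtl normoxia (982 to 1060 in sgXIST7). In sgXIST7 in normoxia 0 of 4 genes were called by edgeR and by DESeq2 (1 at an unadjusted p under 0.05), against 7.76% of all genes. MT2A was higher there in each library, by 1.80-fold (log2 0.84 ± 0.179, adjusted p = 0.00214), which is under the limit on the fold change. Without the second sgXIST7 normoxia library, which had the lowest level of its group, this difference was 1.06 on the log2 scale and was called (edgeR, adjusted p = 6.33e-05, the range over the libraries left out being 6.33e-05 to 0.0174). The log2 differences of MT1X from sgCtl in normoxia were 0.43 in sgXIST7 and 0.45 in sgXIST9 (edgeR, adjusted p = 0.362 and 0.345), and the sgXIST9 libraries did not overlap with sgCtl. For MTF1 they were 0.12 and −0.06, and for SLC30A1 −0.36 and −0.17, none of which passed the test.

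In hypoxia, sgXIST7 had 3.98-fold more MT2A than sgCtl (log2 1.99 ± 0.183, adjusted p = 3.58e-07) and 3.19-fold more MT1X (log2 1.68 ± 0.306, adjusted p = 0.000387, edgeR), so that 2 of 4 genes were called against 14.0% of all genes. In sgXIST9, MT2A was 2.29-fold higher (log2 1.20 ± 0.180, adjusted p = 8.28e-05, edgeR) and was the 1 gene called, against 9.53% of all genes. MT1X differed there by 0.34 on the log2 scale (edgeR, adjusted p = 0.422). SLC30A1 was at 0.467 times the level of sgCtl in sgXIST7 (log2 −1.10 ± 0.330, edgeR, adjusted p = 0.0135), with overlapping groups, and did not pass the test. In sgXIST9 the log2 difference of SLC30A1 was −0.61 (adjusted p = 0.175), and those of MTF1 were −0.52 in sgXIST7 and −0.36 in sgXIST9 (edgeR, adjusted p = 0.052 and 0.203). Without the third hypoxia libraries, edgeR no longer called MT1X in sgXIST7 (log2 1.29, adjusted p = 0.015, the highest among the alternatives other than single libraries left out) and called SLC30A1 (log2 −1.31, adjusted p = 0.009, in a range of 0.00391 with DESeq2 to 0.0542). Without the third sgCtl hypoxia library alone, SLC30A1 was called at −1.39 (edgeR, adjusted p = 0.00166, the lowest over the libraries left out, of which the highest was 0.128). The fibroblast markers summed to 735 to 998 CPM in sgCtl hypoxia, 735 to 981 in sgXIST7 hypoxia and 360 to 636 in sgXIST9 hypoxia, nearly all of it COL3A1, which was not called in either KD line. Single markers differed in other ways, with edgeR calling COL1A1 higher in both KD lines (log2 2.295 in sgXIST7 and 1.995 in sgXIST9 in normoxia, 3.59 and 4.91 in hypoxia, at group means of at most 5.21 CPM) and DCN lower in hypoxia (−5.12 and −4.04). The keratin KRT8 was called higher in both KD lines in both oxygen conditions (log2 from 1.89 to 2.56), and MSLN in sgXIST7 in normoxia (log2 2.99, at a mean of 0.580 CPM). The part of these in the results was not tested.

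**Figure D3:**
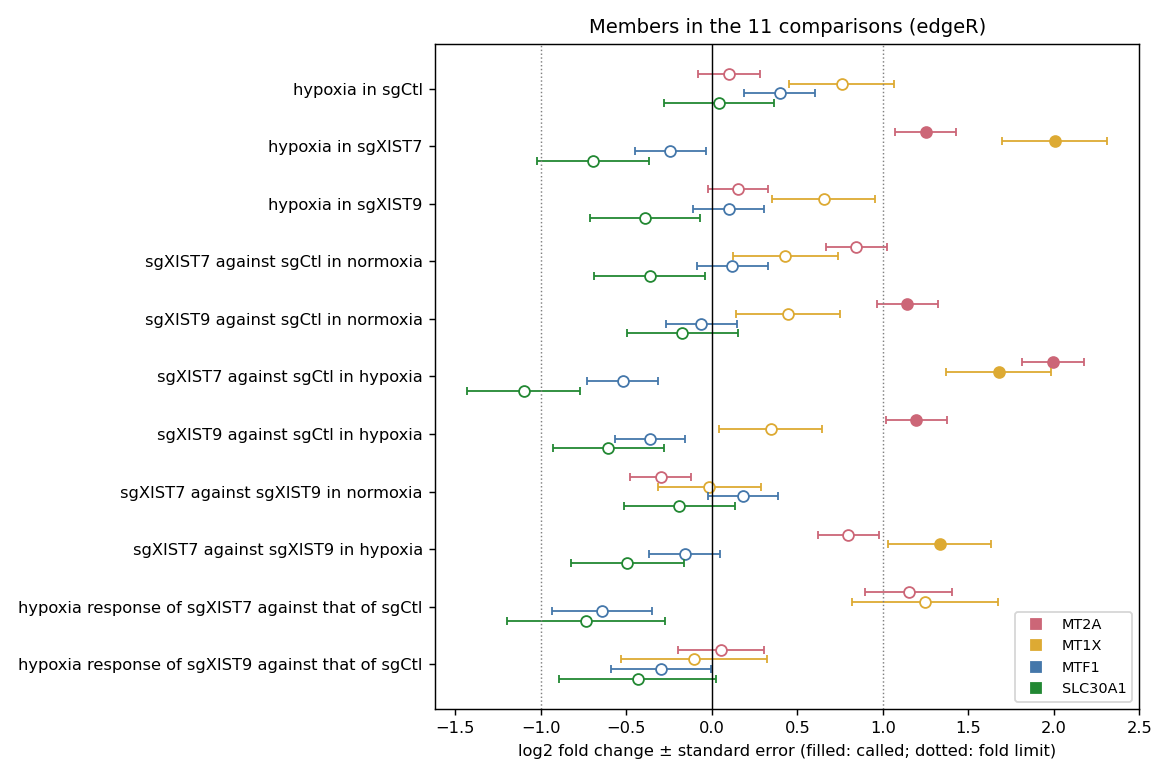
Log2 fold changes (x axis, with the standard error as bars) of MT2A, MT1X, MTF1 and SLC30A1 in the 11 comparisons (y axis), from the edgeR fit of 18 libraries; filled points are called, open ones are not, and the dotted lines are the limit of 1 on the log2 scale. The called differences are all above 0 and belong to MT2A and MT1X, and the lowest value is that of SLC30A1 in sgXIST7 against sgCtl in hypoxia (−1.10).

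The KD lines were also set against each other. In normoxia 0 of 4 genes were called between sgXIST7 and sgXIST9 by edgeR and by DESeq2 (0 at an unadjusted p under 0.05), against 3.40% of all genes, with log2 differences from −0.30 for MT2A to 0.18 for MTF1. In hypoxia MT1X was 2.52-fold higher in sgXIST7 (log2 1.33 ± 0.302, adjusted p = 0.00575, edgeR), 1 of 4 genes called against 4.46% of all genes. This call was lost when the second or the third sgXIST7 hypoxia library or the first or the second sgXIST9 hypoxia library was left out, with log2 differences of 1.16 to 1.28 (edgeR, adjusted p from 0.0314 to 0.0351), and without the third hypoxia libraries of all lines (1.36, adjusted p = 0.0229, in a range of 0.000193 to 0.0396). MT2A was 1.74-fold higher in sgXIST7 (log2 0.80 ± 0.177, edgeR, adjusted p = 0.00495), under the limit on the fold change.

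The response to hypoxia was compared between lines with interaction contrasts, which test the difference of the changes. For MT2A the change in sgXIST7 exceeded that in sgCtl by 1.15 ± 0.252 on the log2 scale (edgeR, adjusted p = 0.0112), and for MT1X by 1.25 ± 0.428 (adjusted p = 0.0745). Thus 0 of 4 genes were called by edgeR (3 at an unadjusted p under 0.05), against 1.52% of all genes, while DESeq2 called MT2A (log2 1.15, adjusted p = 0.000652, the lowest over the alternatives, of which the highest was 0.0288). MT2A was also called by edgeR without the third hypoxia libraries (1.10, adjusted p = 0.00661), and without the third sgCtl hypoxia library (1.16, adjusted p = 0.00555) or the first sgXIST7 hypoxia library (1.26, adjusted p = 0.00755) alone. For sgXIST9 against sgCtl 0 of 4 were called by either tool (0 at an unadjusted p under 0.05), against 1.01% of all genes, with log2 differences of 0.05 for MT2A, −0.10 for MT1X, −0.30 for MTF1 and −0.43 for SLC30A1. The comparisons with sgCtl share its libraries and are not independent of each other.

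The balance between the metallothioneins was described by the share of MT1X in the counts of MT1X and MT2A. In sgCtl it was 31.3%, 29.0% and 32.6% in normoxia and 45.9%, 44.6% and 32.5% in hypoxia. In sgXIST7 it was 26.8%, 23.2% and 24.9% in normoxia and 27.1%, 39.4% and 39.4% in hypoxia. In sgXIST9 it was 24.8%, 20.4% and 20.1% in normoxia and 28.9%, 26.5% and 29.2% in hypoxia. The share was thus higher in hypoxia without overlap in sgXIST7 (by 10.3 points) and sgXIST9 (by 6.40 points, two-sided exact permutation p = 0.1 in both), while the 10.1 points of sgCtl came with overlapping groups (exact p = 0.2). The overlap in sgCtl came from the third sgCtl hypoxia library, without which the share was 14.3 points higher in hypoxia and the groups did not overlap. In normoxia the means were 31.0 ± 1.82% in sgCtl, 25.0 ± 1.82% in sgXIST7 and 21.8 ± 2.63% in sgXIST9, and neither KD line overlapped with sgCtl (exact permutation p = 0.1 in both). In hypoxia the difference from sgCtl was −12.8 points in sgXIST9 without overlap (exact p = 0.1) and −5.71 points in sgXIST7 with overlap (exact p = 0.5). Without the third hypoxia libraries of all lines the differences were −17.6 points in sgXIST9 and −12 points in sgXIST7, and with single libraries left out that of sgXIST7 ranged from −9.95 points (without the third sgCtl hypoxia library) to −1.60 points (without the first sgXIST7 hypoxia library). With 3 libraries against 3 this test cannot give a p below 0.1, and the lowest value adjusted over the 9 comparisons was 0.18.

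**Figure D4:**
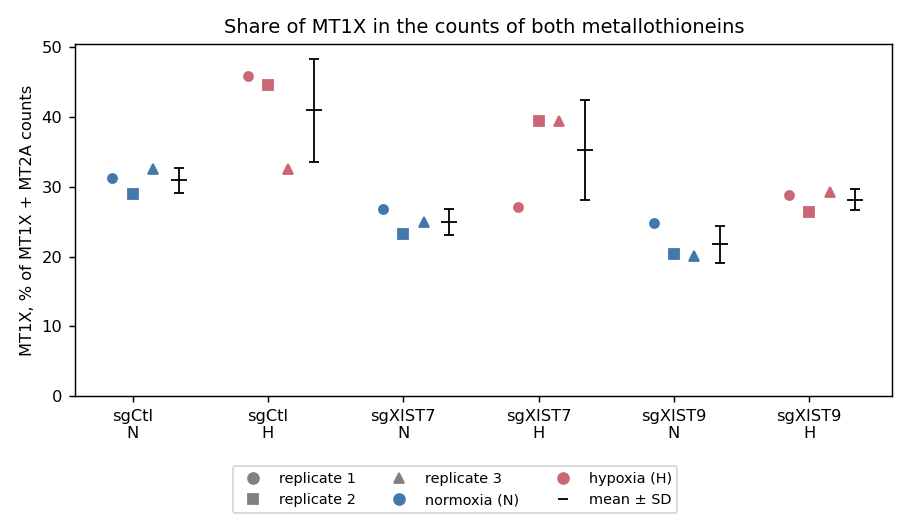
Share of MT1X in the summed counts of MT1X and MT2A (y axis, percent) in the 6 groups (x axis, N for normoxia and H for hypoxia); points are libraries with the replicate number as shape, and black bars the mean ± SD of 3 libraries. In normoxia the 3 libraries of sgCtl, between 29.0% and 32.6%, lie above those of sgXIST7 and sgXIST9.

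The other genes of zinc and copper handling were taken from a list of transporters and metallothioneins, of which 38 were in the table and 23 were tested. With edgeR, 4 of the 23 were called with hypoxia in sgCtl (3 higher), 3 in sgXIST7 (2 higher) and 2 in sgXIST9 (both higher). These are 17.4%, 13.0% and 8.70% of the list, against 19.7%, 27.3% and 23.3% of all genes tested, and with single libraries left out the counts were 2 to 6, 3 to 3 and 2 to 3. The median log2 change over the 23 genes was 0.17, 0.07 and 0.05, against 0.02, 0.01 and 0.09 over all genes tested. ATP7A, the copper-transporting ATPase that loads copper enzymes and exports copper, was the gene called in all 3 lines. Its means rose from 16.0 ± 1.16 to 35.1 ± 5.28 CPM in sgCtl (log2 1.13, adjusted p = 5.31e-05), from 15.1 ± 1.18 to 85.9 ± 24.2 CPM in sgXIST7 (log2 2.50, adjusted p = 6.23e-09) and from 11.5 ± 0.427 to 34.0 ± 3 CPM in sgXIST9 (log2 1.56, adjusted p = 1.51e-06, edgeR, n = 3). SLC39A11, a zinc importer of the ZIP family, was called lower in sgCtl and sgXIST7 (log2 −1.23 and −1.66, edgeR, adjusted p = 3.2e-05 and 7.21e-07). In sgXIST9 it was not called but also fell without overlap, from 8.96 ± 0.308 to 4.59 ± 0.519 CPM. SLC30A3, the exporter known for loading zinc into synaptic vesicles, was called higher in sgCtl (log2 1.70) and in sgXIST9 (log2 2.52, edgeR, adjusted p = 0.00282 and 0.000331), from 3 to 12 counts per library in sgXIST9 normoxia. In sgXIST7 it was also higher without overlap but was not called (log2 0.84, edgeR, adjusted p = 0.0863). SLC39A4, an importer known for zinc uptake in the gut, was called higher in sgCtl on 1 to 19 counts per library in hypoxia. In sgCtl the call of SLC30A3 was lost without any 1 of the normoxia libraries or the second hypoxia library (edgeR, adjusted p from 0.0104 to 0.0156), and that of SLC39A4 without any 1 of the normoxia libraries or the first hypoxia library (adjusted p from 0.0161 to 0.0294). In sgXIST9 the call of SLC30A3 was lost in a fit of only the groups compared (edgeR, adjusted p = 0.0104).

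Among the KD lines, the list was led by SLC39A8, a ZIP importer of zinc and manganese also known as ZIP8. Its level was 183, 178 and 198 CPM in sgCtl normoxia, against 7.87, 7.22 and 7.58 CPM in sgXIST7 and 16.1, 17.1 and 16.1 CPM in sgXIST9. In hypoxia it was at 102, 109 and 182 CPM in sgCtl, 16.6, 18.6 and 21.2 CPM in sgXIST7 and 21.5, 21.5 and 21.1 CPM in sgXIST9. Each library of a KD line was below each control library, without overlap in either oxygen. The log2 differences were −4.62 and −3.50 in normoxia (adjusted p = 1.56e-11 and 1.82e-10) and −2.80 and −2.61 in hypoxia (adjusted p = 3.27e-09 and 6.54e-09, edgeR) for sgXIST7 and sgXIST9. In normoxia 3 of 23 genes were called in sgXIST7, with SLC39A13 and the copper exporter ATP7B higher, and 2 in sgXIST9, with SLC30A3 lower. These are 13.0% and 8.70% of the list, against 7.76% and 7.70% of all genes. ATP7B was at the limit on the fold change (log2 1.005) and lost its call in 7 of 14 alternatives, among them the replicate block (0.998). SLC30A3 in sgXIST9 lost its call without any 1 of the sgCtl normoxia libraries or the first or the third sgXIST9 normoxia library (edgeR, adjusted p from 0.0157 to 0.0387), which leaves SLC39A8 alone. In hypoxia 3 were called in sgXIST7, with the zinc transporter SLC30A9 and ATP7A higher, and SLC39A8 alone in sgXIST9, 13.0% and 4.35% of the list against 14.0% and 9.53% of all genes. The count of 1 in sgXIST9 rose in 7 of 16 alternatives, to 2 with DESeq2 and to 3 without the third hypoxia libraries of all lines. SLC30A9 lost its call in a fit of only the groups compared (edgeR, adjusted p = 0.0214) and without the third sgXIST7 hypoxia library (log2 0.97). The medians over the list were 0.04 and 0.09 in normoxia and −0.24 and −0.04 in hypoxia for sgXIST7 and sgXIST9, against −0.01, −0.02, −0.02 and −0.01 over all genes tested. Between sgXIST7 and sgXIST9, 2 were called in normoxia (SLC30A3 higher and SLC39A8 lower in sgXIST7) and 1 in hypoxia (ATP7A higher). Their shares were 8.70% and 4.35% of the list, against 3.40% and 4.46% of all genes. The call of SLC30A3 between the KD lines was lost without any 1 of the sgXIST7 normoxia libraries. It was also lost without the first or the third sgXIST9 normoxia library (edgeR, adjusted p from 0.0152 to 0.0432 over these libraries).

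**Figure D5:**
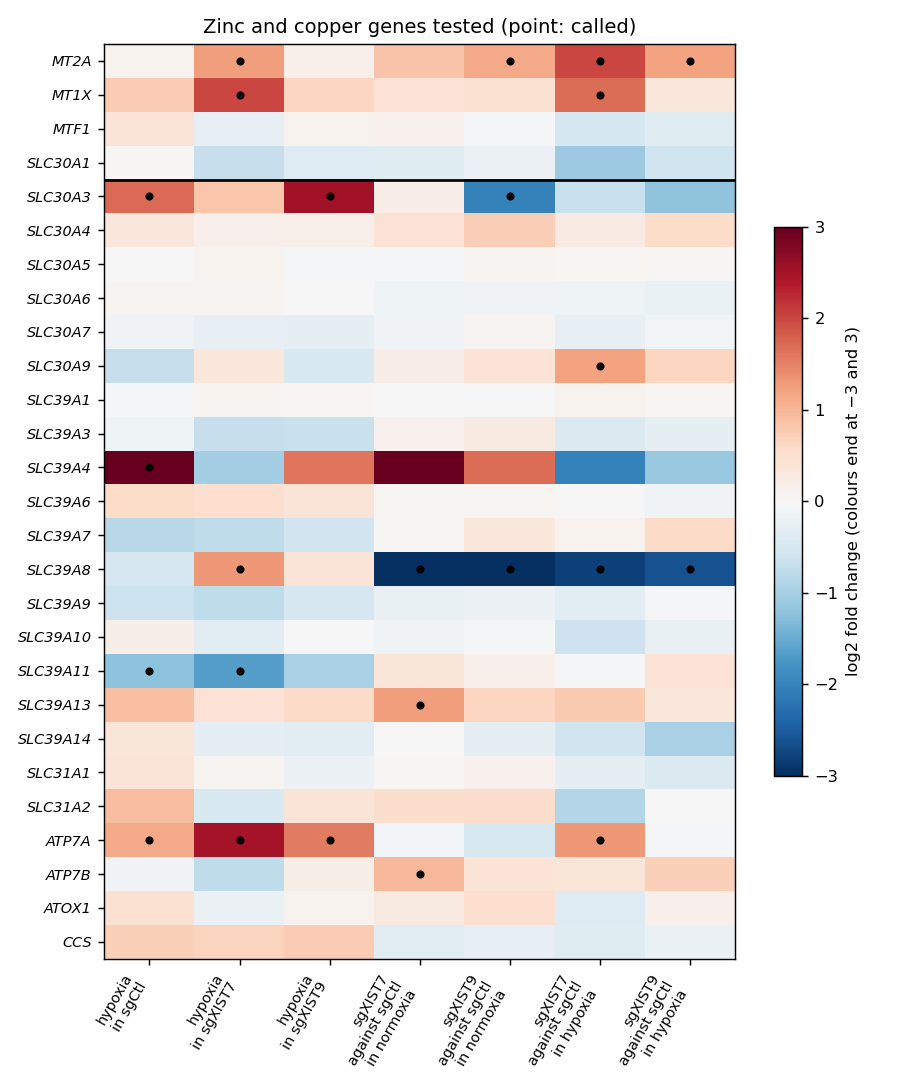
Log2 fold changes (colour scale, ending at −3 and 3) of the 4 members tested (above the line) and the 23 other zinc and copper genes tested (rows) in 7 comparisons (columns), with a point where edgeR called the gene. SLC39A8 is lower in both KD lines in both oxygen conditions, with log2 differences from −4.62 to −2.61.

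Over the 18 libraries, log2 CPM of MT2A and MT1X correlated with r = 0.811 (0.786 after the group means were taken out). SLC30A1 correlated with MTF1 at r = 0.553 (0.587 within groups) and with MT2A at r = −0.598, but at 0.0836 within groups. Among 10707 genes with a mean of at least 100 counts, those most like the mean of MT1X and MT2A were PDCD10 (r = 0.946), EHD4 (0.941), TMEM248 (0.934), GRSF1 (0.934) and RAB4A (0.933). Within groups the r of these genes was lower, from 0.442 for TMEM248 to 0.767 for RAB4A. Those most like SLC30A1 were DOHH (r = 0.932), MRPL49 (0.929), TYW3 (0.914), POLR1C (0.914) and UTP14A (0.913), with r from 0.865 to 0.899 within groups. These correlations over 18 libraries are descriptions, since the libraries share groups, depth and the third hypoxia libraries that stood apart.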

How the data were processed

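RNA-seq libraries of OVCAR3-KRAB cells (TruSeq Stranded Total RNA, ribosomal RNA depleted) were analyzed in 6 groups of 3. The authors used Trimmomatic for trimming, hisat2 for alignment to hg38 and featureCounts to count reads per gene. Tool versions, the annotation release and the strand setting of the counting are not given in the sources used here. The deposited values are these counts, whole numbers without normalization. Of 28279 lines, 2 broken ones with 0 counts were left out. Exon lengths were taken from the deposited table.

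All 18 libraries (11794375 to 24906936 counts) were fitted in 1 model of 6 groups with edgeR 4.0.16 (limma 3.58.1, R 4.3.3), with glmQLFit (robust), glmQLFTest, TMM scaling and filterByExpr (minimum count 10, minimum total 15), which kept 14938 genes at a common dispersion of 0.0321. Calls required a Benjamini-Hochberg adjusted p below 0.01 and a log2 fold change beyond 1 in size. Fold changes used a prior count of 0.125, and standard errors were derived from the fold change and its F statistic. The script was tested on simulated data. DESeq2 1.42.0, other scalings and filters, a replicate block and left-out libraries were tried as alternatives, and the left-out libraries for the MT1X share were added after seeing the data. The deviations of same-numbered libraries correlated above 0.1 in all 3 pairs in 2 of the 9 comparisons of 2 groups (sgXIST7 against sgCtl in normoxia and sgXIST9 against sgCtl in hypoxia), where the replicate block changed no call of a member. Values given without naming an alternative come from the fit without a replicate block, in these 2 comparisons too. Single values were tested with two-sided exact permutation tests.

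The named genes are the 8 members, the zinc and copper genes called in at least 1 comparison, and the 5 genes with the highest correlation to each pattern. The members and lists were chosen with earlier results of these data known. Motifs were searched in RefSeq promoters of GRCh38.p14, whose 4 sequences used here were identical to hg38.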

Additional observations from a re-analysis of the deposited data

Results flagged for a closer look

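The response of SLC39A8 to hypoxia differed between sgXIST7 and sgCtl by 1.82 on the log2 scale (edgeR interaction contrast, adjusted p = 0.000407), since the gene rose in sgXIST7 (log2 1.31, adjusted p = 6.6e-06) and had a log2 change of −0.51 in sgCtl (adjusted p = 0.0128). The third sgCtl hypoxia library, at 182 CPM, lay apart from the 102 and 109 CPM of the others. The difference was called under each of the alternatives tried, with values from 1.67 to 2.13. In sgXIST9 SLC39A8 also rose without overlap, from 16.4 ± 0.585 to 21.4 ± 0.250 CPM. Neither this change nor the response of sgXIST9 against that of sgCtl was called by edgeR for this gene.

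ATP7A was flagged for the same reason, with a response to hypoxia that was larger in sgXIST7 than in sgCtl by 1.37 on the log2 scale (edgeR interaction contrast, adjusted p = 0.00398). It was higher in hypoxia in 3 of 3 libraries of both lines. The difference kept its direction under each alternative tried but not its call, with adjusted p-values up to 0.0175 in a fit of only the groups compared and up to 0.0156 with single libraries left out. Groups of 3 libraries were too small for a test of single outlying libraries.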

How the results depend on the processing

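Of 696 values of the members under alternatives, 656 kept their direction and their side of the threshold, 8 lost the call, 14 gained it and 18 changed sign. For the response of sgXIST7 against sgCtl the count of members called went from 0 to 1 (MT2A) with upper-quartile scaling, no low-count filter, an adjusted p under 0.05, DESeq2, the replicate block and the third hypoxia libraries left out, and ranged from 0 to 1 with single libraries left out. For sgXIST7 against sgXIST9 in hypoxia the count of 1 went to 0 with no low-count filter, only the groups compared and the third hypoxia libraries left out, to 2 without a fold limit, and ranged from 0 to 1 with single libraries left out. For sgXIST7 against sgCtl in normoxia it was 1 without a fold limit and from 0 to 1 with single libraries left out. For sgXIST7 against sgCtl in hypoxia the count of 2 ranged from 2 to 3, also with single libraries left out. SLC30A1 was called lower there with DESeq2 (log2 −1.10, adjusted p = 0.00391), the replicate block and an adjusted p under 0.05. The causes were not tested.

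With the third hypoxia libraries left out, the log2 difference of MT1X in sgXIST9 against sgCtl in hypoxia changed sign to −0.068 and that of MT2A in the response of sgXIST9 to −0.097. With single libraries left out, values that had not passed the test crossed 0: SLC30A1 with hypoxia in sgCtl (−0.40 to 0.33), MTF1 with hypoxia in sgXIST9 (−0.044 to 0.24), MTF1 in sgXIST9 against sgCtl in normoxia (−0.14 to 0.061), MT1X (−0.18 to 0.25) and SLC30A1 (−0.45 to 0.021) in sgXIST7 against sgXIST9 in normoxia, and MT2A (−0.10 to 0.13), MT1X (−0.31 to 0.049) and SLC30A1 (−0.75 to 0.011) in the response of sgXIST9.

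Same-numbered libraries deviated together with r above 0.1 in 15 of 45 pairs, among them 7 of 9 pairs of hypoxia libraries of 2 lines. Of 90 matches of a library with the 3 libraries of another group, 49 were best at its own number. All 3 pairs were above 0.1 in 2 comparisons of groups. The fit of all 18 libraries had no replicate block in these or in the others, and the block was an alternative only. Between sgCtl hypoxia and sgXIST7 hypoxia r was 0.306, 0.0168 and 0.383 for replicates 1 to 3. With the replicate block MT2A was called in the response of sgXIST7 (1.16, adjusted p = 0.00542) and SLC30A1 in sgXIST7 against sgCtl in hypoxia (−1.08, adjusted p = 0.00889). Counts of 3 or fewer limit what can be said of MT1E, MT1F, MT1G and MT1M.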
